A study of Homo sapiens with 6 samples.

Results

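The genes described here are 45 genes of the dividing cell, 19 that act in DNA replication or switch it on and 26 that act in mitosis. They were taken by gene symbol, and every probe annotated to one of the 45 symbols was taken, 66 probes in all, out of 20046 named genes on the array. A probe was counted as detected on an array when its detection p-value, a rank against the array's negative control probes, was under 0.05, and it was analysed when it was detected on at least 3 of the 6 arrays. In all, 64 of the 66 probes and 44 of the 45 genes met this rule, among 10832 genes that did. The exception was CCNE2, which encodes cyclin E2: its 1 probe was detected on 1 control array and 1 of the others, and it has no value below.

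The cells were Mec-1, a human line of malignant B cells kept in culture as a model of chronic lymphocytic leukaemia and SLAMF1-positive per the labels. SLAMF1 (CD150) is a surface receptor of the SLAM family. The 3 control arrays held RNA of cells transfected with a scrambled short hairpin RNA (shRNA), and the other 3 held RNA of cells in which a pGFP-V-RS vector with an shRNA against SLAMF1 was used to silence it. All cells grew in vitro in complete medium with no other treatment named, and the replicates are described as biological, with no word on whether they were separate clones or cultures. The p-values thus reflect only how far these samples scatter, and that scatter may be technical. The 6 arrays lay side by side on 1 chip, controls in the first 3 positions, so that position and group cannot be told apart. RNA per cell and the share of cells in each phase of the cycle also cannot be told apart in such bulk samples.

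Values are log2 probe intensities after background correction and quantile normalization, 1 unit being a doubling of corrected signal, and a difference is the mean of the arrays labelled SLAMF1 shRNA minus the control mean. Mean signal ranged from 208 to 294 and the number of detected probes from 17192 to 19586, both lowest on replicate 2 labelled SLAMF1 shRNA. That array correlated with the other replicates of its label at 0.928 and 0.942 across genes, which are no independent replicates, against 0.994 between those 2, and results are given with and without it. The SLAMF1 signal, read by its only probe, was not lower under the SLAMF1 shRNA label. Its level was 8.26, 8.38 and 8.01 on the control arrays and 8.70, 8.44 and 8.64 on the others. Each array labelled SLAMF1 shRNA was thus above all controls, though the difference did not pass a threshold of 0.05 (0.38, SE 0.18, adjusted p = 0.153 by limma with Benjamini-Hochberg adjustment). Where this probe lies relative to the shRNA target was not examined, and whether the silencing worked was not tested. Without replicate 2 SLAMF1 passed as higher (0.46, adjusted p = 0.0489). Directions below are therefore those of the labels. Of the B cell markers, CD79A, CD79B, CD22 and MS4A1 were detected on all 6 arrays, and the T cell markers CD3D, CD3E and CD5 and the erythroid markers HBA1, HBB and ALAS2 on none. PAX5 was detected on 1 array. The T cell marker CD2 was detected on 3 control arrays and 2 of the others, and CD3G on 1 of the others. Of the myeloid markers, ITGAM was detected on the 3 controls and none of the others, and CSF1R the reverse (mean log2 level 4.27 and 5.09). LYZ was detected on up to 3 control arrays and 2 of the others, and CD14 and FCGR3A on fewer. Of the 4 myeloid markers tested 1 was called higher and 0 lower. The summed linear level of the 5 B cell markers measured was 1612 to 1836 on the controls and 4647 to 6533 on the others. CD79A, CD79B and CD22 were called higher and MS4A1 lower, from a mean log2 level of 8.40 to 6.95. The summed level was, in controls and others, 116.7 to 119.5 and 112.9 to 142.6 for the 5 myeloid markers and, for the 5 T cell markers, 97.8 to 106.6 and 97.6 to 107.0. Every probe in such a sum carries the constant added in background correction. The 3 erythroid markers, detected on no array, summed to 58.6 to 60.1 on the controls and 58.0 to 60.2 on the others. Most of the myeloid and T cell sums is thus floor signal. The part of the marker shifts in the results below was not tested.

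DNA replication starts from origins on which the MCM2 to MCM7 proteins are loaded as a ring-shaped helicase by CDC6 and CDT1. Cyclin E with CDK2 and the GINS complex then help to start the forks, PCNA holds the polymerases on DNA, and ribonucleotide reductase (RRM1 and RRM2) and thymidine kinase (TK1) supply nucleotides. The E2F transcription factors drive most of these genes late in G1. Mitosis begins when CDC25 phosphatases activate CDK1 bound to cyclin B, kinases such as PLK1 and the Aurora kinases build the spindle, BUB1, BUB1B and TTK hold back anaphase until chromosomes are attached, and CDC20 with the anaphase-promoting complex then ends the block. The FOXM1 and MYBL2 factors, with the MuvB complex, drive many of the mitotic genes through a promoter element called the cell cycle genes homology region (CHR). Circulating cells of chronic lymphocytic leukaemia rarely divide, whereas cell lines such as Mec-1 proliferate in culture.

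These 2 promoter classes could be read in the sequences of the members. RefSeq promoter windows of GRCh38.p14, each 250 bases before to 50 bases after an annotated start, matched 35 of the 45 genes, 15 of replication and 20 of mitosis. They were searched on both strands for an E2F motif (TTCGCGC or TTGGCGC), for a CHR motif (TTTGAA or TTCGAA) and for the CCAAT box (CCAAT). An E2F and a CCAAT match can share bases. An E2F match was present in 9 of the 15 replication genes (60.0%) and 3 of the 20 mitosis genes (15.0%), against 6.10% of all 27305 genes of the table. A CHR match was present in 2 replication genes (13.3%) and 13 mitosis genes (65.0%), against 19.5% of all genes, and a CCAAT box in 11 (73.3%) and 17 (85.0%), against 39.7%. Genes with several starts had several windows and so more chances of a match. With genes of 1 window only, the E2F shares were 63.6% for replication, 12.5% for mitosis and 4.95% for all, and the CHR shares 18.2%, 68.8% and 17.2%. A match is a description of letters, not a bound site. Only the letters given were searched, so an E2F or CHR site in another form was not counted.

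Windows of 5 genes are printed because they span both classes and both directions of change: MCM6 of the helicase, GINS2 and CDC25C, which were higher in the arrays labelled SLAMF1 shRNA, and CDC20 and KIF20A, which were lower. Capitals mark the E2F, CHR and CCAAT matches of either strand, read 5′ to 3′ on the gene's strand.
MCM6, chr2:135876394-135876693, minus strand: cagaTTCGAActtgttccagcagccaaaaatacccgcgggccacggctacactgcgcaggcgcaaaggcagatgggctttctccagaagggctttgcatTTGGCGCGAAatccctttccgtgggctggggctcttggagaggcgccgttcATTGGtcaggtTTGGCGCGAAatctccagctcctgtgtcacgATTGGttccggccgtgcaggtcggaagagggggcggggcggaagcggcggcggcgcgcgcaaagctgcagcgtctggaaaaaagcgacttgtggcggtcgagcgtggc
GINS2, chr16:85688905-85689204, minus strand: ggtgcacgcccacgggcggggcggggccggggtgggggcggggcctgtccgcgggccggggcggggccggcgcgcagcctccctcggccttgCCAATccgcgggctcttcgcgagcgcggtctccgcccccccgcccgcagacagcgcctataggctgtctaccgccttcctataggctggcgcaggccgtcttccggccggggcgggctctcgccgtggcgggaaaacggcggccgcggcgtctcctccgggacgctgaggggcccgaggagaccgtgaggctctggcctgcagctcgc
CDC25C, chr5:138331828-138332127, minus strand: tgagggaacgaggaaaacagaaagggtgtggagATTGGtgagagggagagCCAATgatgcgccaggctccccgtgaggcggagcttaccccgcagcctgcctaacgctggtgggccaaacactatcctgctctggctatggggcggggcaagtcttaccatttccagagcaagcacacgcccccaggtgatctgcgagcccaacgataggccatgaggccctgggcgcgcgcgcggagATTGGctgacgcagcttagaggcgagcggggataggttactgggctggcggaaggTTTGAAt
CDC20, chr1:43358731-43359030, plus strand: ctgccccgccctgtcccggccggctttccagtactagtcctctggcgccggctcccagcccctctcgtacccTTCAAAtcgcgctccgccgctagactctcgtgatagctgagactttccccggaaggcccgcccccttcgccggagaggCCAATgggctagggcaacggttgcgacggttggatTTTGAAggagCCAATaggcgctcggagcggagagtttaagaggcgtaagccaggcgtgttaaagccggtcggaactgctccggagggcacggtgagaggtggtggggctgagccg
KIF20A, chr5:138178862-138179161, plus strand: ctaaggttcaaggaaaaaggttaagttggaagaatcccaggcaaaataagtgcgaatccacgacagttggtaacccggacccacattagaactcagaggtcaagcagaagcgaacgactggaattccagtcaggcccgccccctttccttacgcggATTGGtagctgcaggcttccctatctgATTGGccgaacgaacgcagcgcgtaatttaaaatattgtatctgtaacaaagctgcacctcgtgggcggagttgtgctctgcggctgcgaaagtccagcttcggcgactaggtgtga
The MCM6 window held 4 E2F matches, lying as 2 overlapping pairs on opposite strands that began 151 and 89 bases before the start, and a CHR match at its far end. Of the motifs searched, the GINS2 window held only a CCAAT box. CDC25C had 4 windows, and the one shown held a CHR match 44 bases into the transcript and 3 CCAAT boxes. CDC20, which moved the other way, held 2 CHR matches, the nearer 65 bases before the start, and 2 CCAAT boxes. KIF20A held 2 CCAAT boxes and neither of the other motifs in this window.

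Across both classes, 9 of the 44 tested genes differed between the labels, 5 higher and 4 lower in the arrays labelled SLAMF1 shRNA (limma, adjusted p under 0.05). This share, 20.5%, lay near that of all 10832 genes tested, of which 24.6% were called, 12.9% as higher and 11.7% as lower, and the 2 shares differ little. Calls split into 52.5% higher and the rest lower, against 42.5% higher with median centring. Of the 18 replication genes 2 were higher (GINS2 and TK1) and 1 lower (CCNE1). Of the 26 mitosis genes 3 were higher (CDC25C, FOXM1 and NUSAP1) and 3 lower (KIF20A, CENPE and CDC20). The median difference was -0.18 over the replication genes and -0.25 over the mitosis genes, against 0.02 over all genes tested. Median centring moved the median of all genes by -0.17, and relative to that median the replication genes then lay at -0.20, as they did before, and the mitosis genes at -0.36 rather than -0.28.

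Only GINS2, CDC25C and CENPE kept their call when each of the 6 arrays was left out in turn. The calls of TK1, CCNE1, CDC20, KIF20A, FOXM1 and NUSAP1 were lost without control replicate 2 (adjusted p from 0.0629 to 0.126) and without control replicate 3 (from 0.0674 to 0.155). Those of CCNE1, CDC20, FOXM1 and NUSAP1 were lost without control replicate 1 (from 0.0501 to 0.124), those of TK1, CCNE1, CDC20, FOXM1 and NUSAP1 without replicate 3 of the other label (from 0.0516 to 0.156), and those of CDC20 and NUSAP1 without its replicate 1 (0.0503 for CDC20 and 0.106 for NUSAP1).

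**Figure D1:**
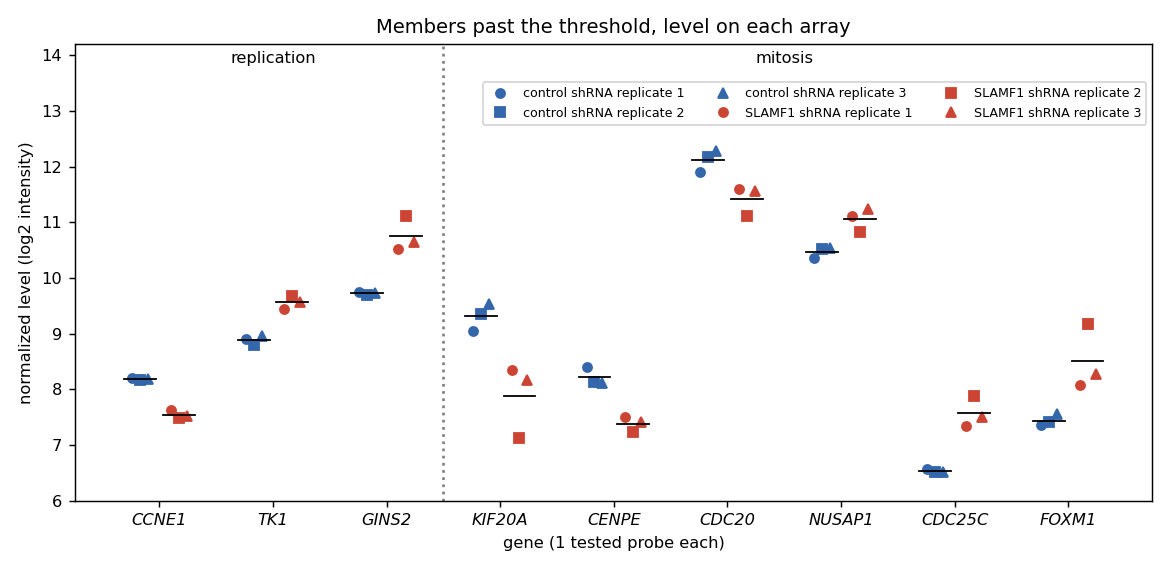
Normalized level (log2 intensity, vertical axis) of the 9 members past the threshold on each of the 6 arrays, with 3 points per group marked by replicate and a line at each group mean. In all 9 genes the groups do not overlap, and the square of replicate 2 labelled SLAMF1 shRNA lies farthest from the controls in each gene except NUSAP1.

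Of the 3 replication genes past the threshold, GINS2 had the largest difference. GINS2 is part of the GINS complex, which joins CDC45 and the MCM ring into the active helicase. Its level was 9.75, 9.69 and 9.73 on the control arrays and 10.51, 11.12 and 10.64 on the arrays labelled SLAMF1 shRNA. The control arrays were nearly level, every array of the other label was higher, and replicate 2 was highest. The difference was 1.04 (SE 0.20, 95% interval 0.58 to 1.49, adjusted p = 0.008), a 2.05-fold higher level, and 0.86 without replicate 2. Of the other GINS subunits, GINS3 was lower at -0.94 (SE 0.20, adjusted p = 0.0132), a call lost without control replicate 2 or 3, and GINS1 gave -0.42 (adjusted p = 0.108) and GINS4 -0.00 (adjusted p = 0.992).

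TK1 salvages thymidine for DNA synthesis. It read 8.91, 8.80 and 8.95 on the controls and 9.44, 9.67 and 9.56 on the other arrays, without overlap. It was 1.60-fold higher (0.68, SE 0.16, adjusted p = 0.0184), a call lost with median centring. CCNE1 encodes cyclin E1, the partner of CDK2 at the start of S phase. It read 8.21, 8.16 and 8.19 against 7.62, 7.49 and 7.52, so both groups were tight and apart, and it was 1.56-fold lower (-0.64, SE 0.15, adjusted p = 0.0182). A second, dimmer CCNE1 probe was detected on all 3 control arrays and on no array labelled SLAMF1 shRNA, which gives a level at least 1.28-fold lower (adjusted p = 0.110 over all probes).

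The 6 genes of the MCM helicase did not pass the test, and they went both ways. MCM2 gave 0.51 (SE 0.25) and MCM5 0.34 (SE 0.22), whereas MCM3 gave -0.32, MCM4 -0.44, MCM6 -0.08 and MCM7 -0.21, with adjusted p from 0.171 for MCM2 to 0.841 for MCM6. By the tested probe, control replicate 1 was the lowest control in all 6 of them, which held for 41.1% of all tested genes. MCM2, for example, read 9.43 there against 10.29 and 9.96 on the other controls and 10.31, 10.24 and 10.65 on the arrays labelled SLAMF1 shRNA. Other probes differed: control replicate 1 was highest on the third MCM7 probe (5.13, 4.67 and 5.05 on the controls). On the second MCM4 probe control replicate 3 was lowest (8.74, 8.78 and 8.65). That MCM4 probe gave -0.55 (adjusted p = 0.0890 over all probes). Without replicate 2 labelled SLAMF1 shRNA it gave -0.72, against -0.23 by the tested probe. Without control replicate 1 the differences of the tested probes ranged from -0.65 for MCM4 to 0.28 for MCM2, and MCM6 moved from -0.08 to -0.22. None of the 6 passed the threshold there either, with adjusted p from 0.145 to 0.622.

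Other replication genes gave differences that did not pass, and their intervals bound the measured signal only. RRM1, the large subunit of ribonucleotide reductase, gave -0.15 (95% interval -0.52 to 0.22), the loading factors CDC6 and CDT1 gave -0.15 (-0.64 to 0.35) and 0.04 (-0.52 to 0.61), and E2F1 gave 0.27 (-0.24 to 0.78). E2F1 was level at 5.29 to 5.40 on 5 arrays and read 6.07 on replicate 2 labelled SLAMF1 shRNA. CDC6 read 5.35 to 6.03 over the 6 arrays. At such dim levels the differences may be understated. E2F2, a second activating E2F, gave -0.47 (-1.06 to 0.12) and CDK2 -0.30 (-0.90 to 0.30). Of the 15 replication genes that were not called, 9 had an interval inside a 2-fold change of measured signal in either direction by the tested probe. Second probes of CDK2 and MCM7, both among the 9, gave larger differences of -0.94 and -0.84. Without replicate 2 labelled SLAMF1 shRNA, these second probes gave 0.02 each.

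PCNA, the sliding clamp of the replication fork, read 11.40, 10.93 and 11.21 on the controls and 10.87, 10.13 and 10.80 on the others. All 3 arrays labelled SLAMF1 shRNA lay below the lowest control, yet the difference of -0.58 (SE 0.24) did not pass (adjusted p = 0.122), and it was -0.34 without replicate 2. RRM2, the small subunit of ribonucleotide reductase, showed the widest spread of all members. It read 9.35, 9.62 and 9.96 on the controls and 10.11, 6.38 and 10.07 on the others, so replicates 1 and 3 were above every control and replicate 2 far below. Its difference was -0.79 (SE 0.90, adjusted p = 0.556) with all arrays and 0.45 (adjusted p = 0.0858) without replicate 2. CDC25A, the phosphatase that activates CDK2, went the other way, at 8.85, 8.76 and 8.84 on the controls and 8.09, 8.92 and 8.09 on the others. It gave -0.45 (adjusted p = 0.220) with all arrays and passed as lower at -0.73 (adjusted p = 0.00253) without replicate 2. The second CDC25A probe read 6.61, 6.68 and 7.07 on the controls and 6.13, 5.92 and 6.08 on the others, so the high replicate 2 was seen on the brighter probe alone. That second probe was lower with all arrays (-0.74, adjusted p = 0.0288 over all probes), and the mean of both probes passed as well (-0.60, adjusted p = 0.0365).

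**Figure D2:**
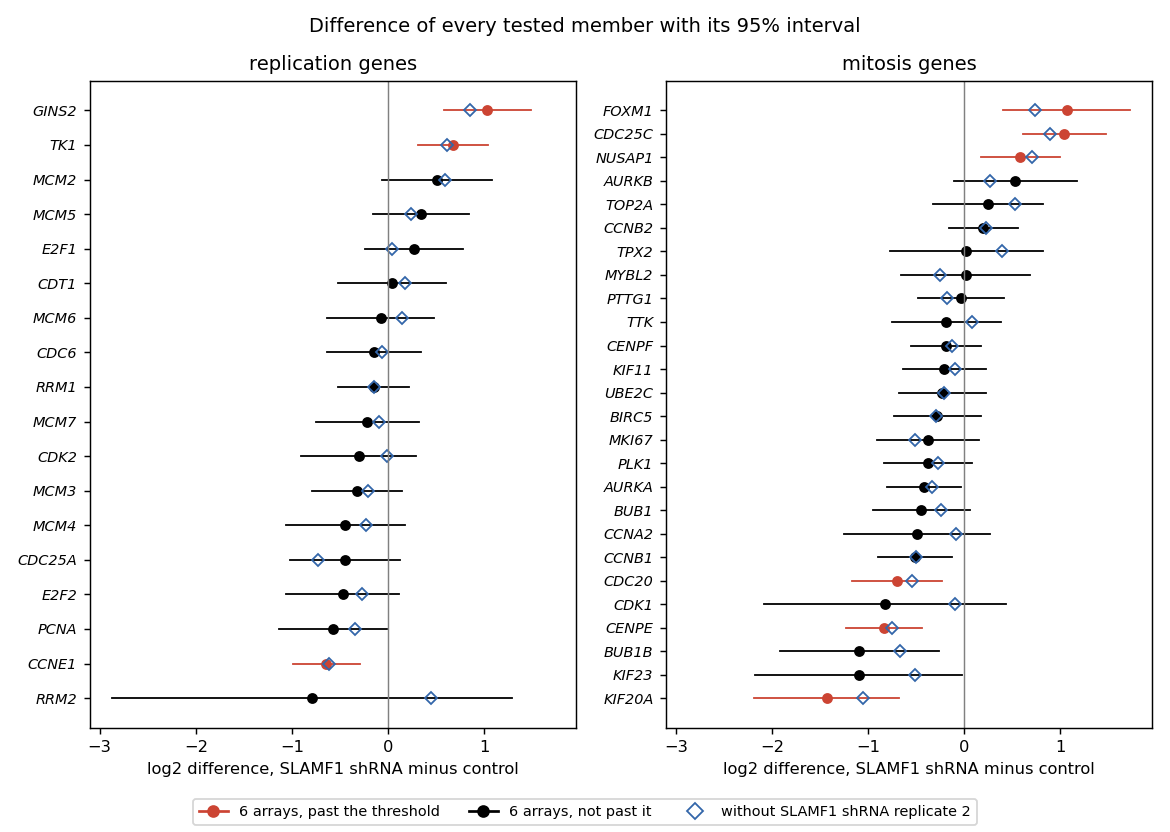
Log2 difference, SLAMF1 shRNA minus control (horizontal axis), of the 18 replication and 26 mitosis genes tested, each with its 95% interval from the fit of all 6 arrays, in red where it passed the threshold. Open diamonds give the difference without replicate 2 labelled SLAMF1 shRNA: that of RRM2 crosses 0, from -0.79 to 0.45, and those of CDK1 and KIF23 move toward 0.

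Among the mitosis genes, CDC25C, FOXM1 and NUSAP1 were higher and KIF20A, CENPE and CDC20 lower in the arrays labelled SLAMF1 shRNA by the tested probe. CDC25C, which removes the inhibitory phosphate from CDK1, was 2.06-fold higher (1.04, SE 0.19, adjusted p = 0.00606). It read 6.56, 6.52 and 6.52 on the controls and 7.35, 7.88 and 7.50 on the arrays labelled SLAMF1 shRNA, with no overlap. Its other 2 probes gave 0.91 and 0.89, all in the same direction. FOXM1, the transcription factor of the mitotic programme, read 7.36, 7.41 and 7.55 against 8.07, 9.18 and 8.27. It was 2.09-fold higher (1.07, SE 0.29, adjusted p = 0.0299), with replicate 2 above the rest, and 0.73 without that array. The call of FOXM1 was lost with no background correction (adjusted p = 0.0580), with the second deposited table (0.0572) and with no filter on dim probes (0.0825). NUSAP1, a spindle microtubule protein, read 10.35, 10.52 and 10.53 against 11.11, 10.82 and 11.24 and was higher by its brighter probe (0.58, SE 0.18, adjusted p = 0.0460). Its other probe gave -0.45, and the mean of its probes gave 0.07 (adjusted p = 0.911).

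KIF20A, a kinesin of the midzone and of cytokinesis, had the largest change of the 44 genes, 2.70-fold lower (-1.43, SE 0.33, 95% interval -2.19 to -0.68, adjusted p = 0.0165). It read 9.06, 9.36 and 9.54 on the controls and 8.35, 7.12 and 8.17 on the others. Every array labelled SLAMF1 shRNA was below every control, and without replicate 2, the lowest, the difference was -1.05 (adjusted p = 0.000683). CENPE, the kinetochore kinesin that aligns chromosomes, read 8.40, 8.14 and 8.11 against 7.50, 7.23 and 7.42 and was 1.78-fold lower (-0.83, SE 0.17, adjusted p = 0.0109). Its second probe gave -0.79, and the replicates of each label lay close together on both probes. CDC20, the activator of the anaphase-promoting complex, read 11.89, 12.18 and 12.29 against 11.59, 11.11 and 11.56 and was 1.62-fold lower (-0.70, SE 0.20, adjusted p = 0.0396).

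The groups did not overlap in 13 of the 26 mitosis genes, 4 higher and 9 lower, and in 4 of the 18 replication genes, 2 higher and 2 lower. Over all tested genes the share was 45.7%, with 23.7% higher and 22.0% lower, against 38.6% of the 44 members. Several of these did not pass the test. CCNB1, which encodes cyclin B1, read 8.56, 8.25 and 8.42 on the controls and 8.01, 7.89 and 7.80 on the others, a difference of -0.51 (SE 0.17, adjusted p = 0.0583). Without replicate 2 it passed as lower at -0.51 (adjusted p = 0.0303). Its close relative CCNB2 gave 0.20 (95% interval -0.16 to 0.56). CCNB1 also passed as lower with uncorrected signals, the larger offset of 50, the second table, all genes tested, and array weights (adjusted p from 0.00301 to 0.0338). AURKA, the kinase of the spindle poles, gave -0.42 (adjusted p = 0.101), and it passed as lower under the same settings other than that with all genes tested (adjusted p from 0.0192 to 0.0468). AURKB, the kinase of the centromere and midzone, gave 0.53 (adjusted p = 0.201), with AURKB at 8.69, 8.03 and 8.19 on the controls and 8.54, 9.37 and 8.60 on the others.

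The spindle checkpoint genes did not pass with all arrays. BUB1B, which encodes the checkpoint protein BUBR1, read 7.85, 7.29 and 7.53 against 6.91, 5.61 and 6.88. The groups did not overlap, and the difference of -1.09 (SE 0.36) had an adjusted p of 0.0594. It passed as lower without replicate 2 at -0.66 (adjusted p = 0.0133). BUB1 gave -0.45 (adjusted p = 0.170) and the checkpoint kinase TTK -0.19 (adjusted p = 0.616). TTK changed sign, to 0.08, without replicate 2.

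The proliferation marker MKI67 read 6.37, 5.70 and 5.90 on the controls and 5.38, 5.89 and 5.56 on the others, and these ranges overlap (-0.38, 95% interval -0.91 to 0.16, adjusted p = 0.267). TOP2A, the topoisomerase that untangles sister chromosomes, read 10.53, 10.47 and 10.43 against 11.05, 10.17 and 10.95. It gave 0.25 (adjusted p = 0.5003) with all arrays and passed as higher, at 0.53 (adjusted p = 0.0171), without replicate 2. Of the rest, PLK1 gave -0.38, BIRC5, the survivin of the chromosomal passenger complex, -0.28, UBE2C, the ubiquitin-conjugating enzyme of the anaphase-promoting complex, -0.23, KIF11, the motor that separates spindle poles, -0.21, CENPF, a kinetochore protein, -0.19, and PTTG1, the securin, -0.03. The second, dimmer PTTG1 probe gave -0.59 (adjusted p = 0.140 over all probes), and -0.44 without replicate 2. Second probes gave -0.50 for UBE2C, -0.37 for KIF11 and -0.14 for BIRC5, none past the threshold. Without replicate 2 they gave -0.29, -0.00 and -0.42. TPX2, the activator of AURKA, and MYBL2 both gave 0.02, MYBL2 at 4.94 to 5.93 over the 6 arrays. With median centring TOP2A, CCNB2, TPX2, MYBL2 and CDT1 turned to a difference below 0. Of the 20 mitosis genes not called, 15 had an interval inside a 2-fold change of measured signal by the tested probe.

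Replicate 2 labelled SLAMF1 shRNA set much of the spread. It was the lowest of the 3 arrays of its label in 29 of the 44 members (65.9%), against 43.4% of all tested genes. It lay over 1 log2 unit below the mean of replicates 1 and 3 in 7 members (15.9%), 6 of them mitotic, against 7.38% of all tested genes. These 7 were RRM2, CDK1, KIF23, BUB1B, CCNA2, KIF20A and TPX2. In 1 member (2.27%) it lay over 1 unit above that mean, against 7.90% of all tested genes. CDK1, the mitotic kinase itself, read 9.99, 9.82 and 9.996 on the controls and 10.01, 7.65 and 9.67 on the others, so its difference was -0.82 (SE 0.55, adjusted p = 0.305) with all arrays and -0.09 without replicate 2. CCNA2, which encodes cyclin A2, moved from -0.49 to -0.09 in the same way. KIF23, another kinesin of cytokinesis, read 8.07, 8.59 and 8.78 against 8.07, 6.22 and 7.87. It gave -1.10 (adjusted p = 0.124) with all arrays and -0.51 (adjusted p = 0.0714) without replicate 2.

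**Figure D3:**
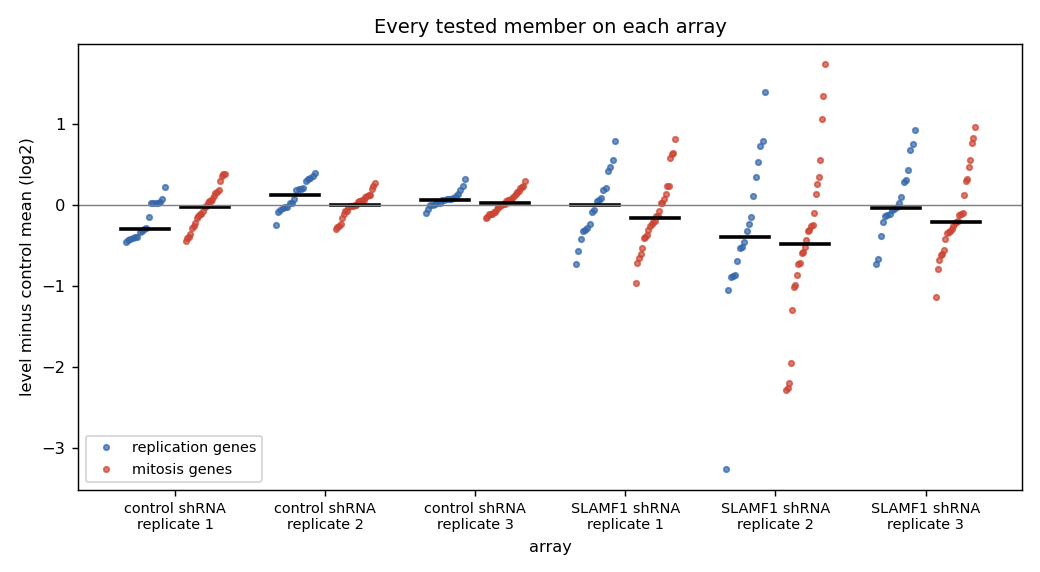
Level of each tested member minus its control mean (log2, vertical axis) on each of the 6 arrays, replication genes in blue and mitosis genes in red, with a line at the median of each. Replicate 2 labelled SLAMF1 shRNA has the lowest medians, -0.39 and -0.48, and the widest scatter, down to -3.27 for RRM2, and control replicate 1 has a replication median of -0.29.

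On the arrays labelled SLAMF1 shRNA the replication median relative to the control mean was near 0 on replicates 1 (-0.00) and 3 (-0.04) and -0.39 on replicate 2. The mitosis median was -0.17, -0.48 and -0.22 on replicates 1, 2 and 3. Over all tested genes these medians lay between 0.01 and 0.03. Leaving out replicate 2 brought the median difference to -0.04 for the replication genes and -0.20 for the mitosis genes. The number of members called then rose to 13, or 29.5%, against 36.9% of all tested genes (19.4% higher and 17.4% lower). They were the same 9 with CDC25A, CCNB1 and BUB1B as lower and TOP2A as higher. For replication that made 2 higher and 2 lower, and for mitosis 4 higher and 5 lower.

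On replicate 2, probes of the same gene could part. For 18 members more than 1 probe was analysed, and in 17 of them all probes gave a difference of the same sign. NUSAP1 was the exception, with 0.58 by the brighter probe and -0.45 by the other. The second NUSAP1 probe read 9.62, 9.64 and 9.55 on the controls and 10.14, 7.52 and 9.80 on the others. Both NUSAP1 probes were thus above every control on replicates 1 and 3, and they parted only on replicate 2. Probes of MCM7 and CDK2 also parted on replicate 2, though without it those of MCM7 still ranged from -0.32 to 0.02 against the control mean. On replicate 2 the second MCM7 probe differed from the mean of replicates 1 and 3 by -2.56, the brightest by -0.37 and the third by -0.40. The CDK2 probes differed by -2.89 and -0.87. By contrast both CDK1 probes lay low together, at -2.19 and -2.15, and both FOXM1 probes lay above, at 1.01 and 1.34. The positions of the probes on their transcripts were not used here, and the part of RNA quality in these gaps was not tested.

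**Figure D4:**
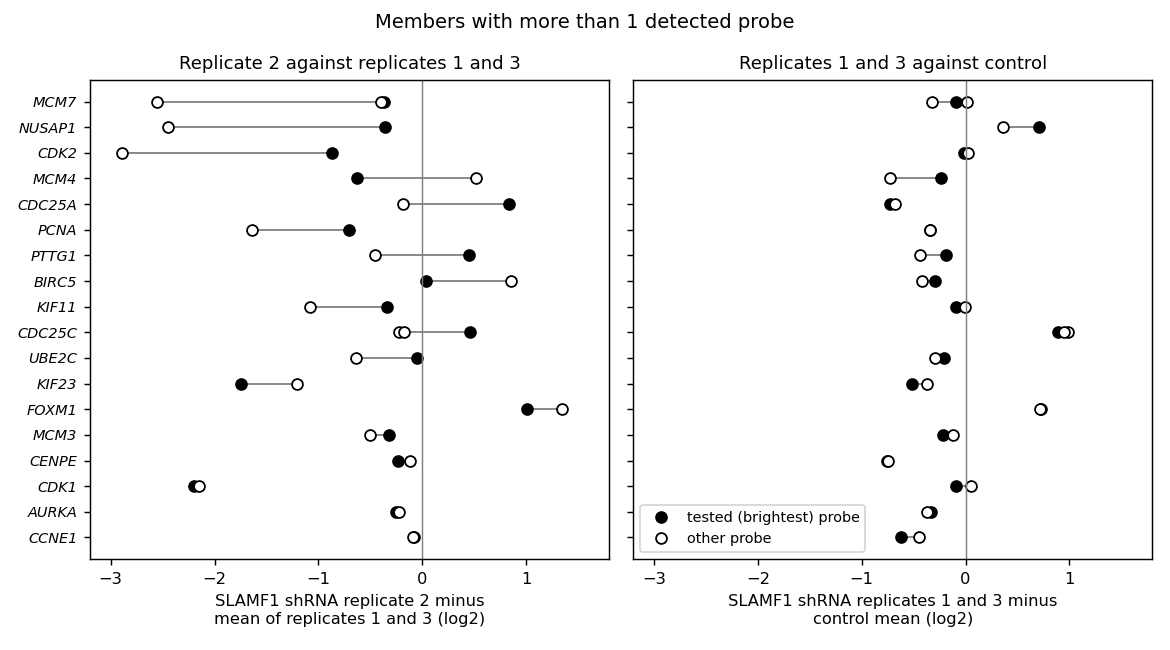
The 18 members with more than 1 analysed probe, 1 row per gene, filled circles for the tested probe and open circles for the others. On the left, replicate 2 labelled SLAMF1 shRNA minus the mean of replicates 1 and 3 (log2) differs by over 1 between probes of 5 genes; on the right, replicates 1 and 3 minus the control mean differ by at most 0.49, in MCM4.

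Without replicate 2, probes of 1 gene differed by over 0.5 in 0 of the 18 genes, and with it in 4: NUSAP1, CDK2, MCM7 and PTTG1. MCM4 went the other way, from 0.11 with that array to 0.49 without it, just under the cutoff. The distance also widened slightly without it in MCM3, CCNE1 and AURKA. The median distance between the highest and lowest probe of a gene was 0.16 with that array and 0.09 without it.

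Wider lists of the same machinery were read beside the members. Of 161 tested genes in 10 further lists, 11 were higher and 17 lower, 17.4% in all, against 24.6% of all tested genes, and their median difference was -0.25. Without replicate 2 the median was -0.04, with 18 higher and 21 lower (24.2%, against 36.9% of all tested genes). The counts per list below are to be read against the same 24.6%. Among 18 other origin genes 0 were higher and 2 lower, GINS3 and ORC2 (-0.60, SE 0.17), a subunit of the origin recognition complex. Among 27 other fork genes 3 were higher and 1 lower, with POLD1, the catalytic subunit of polymerase delta, at 1.35 (SE 0.28, adjusted p = 0.0120), CHAF1B, a histone chaperone subunit, at 0.74 and TIPIN, a fork protection protein, at -0.81. Of 9 nucleotide supply genes 0 were higher and 2 lower, TYMS and DUT (-0.59). TYMS, thymidylate synthase, makes thymidylate afresh where TK1 salvages it. It read 10.91, 10.81 and 10.95 on the controls and 9.82, 8.98 and 9.46 on the others (-1.47, SE 0.23, adjusted p = 0.00345), the opposite direction to TK1.

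The lists of mitosis were as mixed. Of 21 other checkpoint and kinetochore genes 1 was higher, the kinetochore subunit SPC24 (1.42, SE 0.41, and 0.92 without replicate 2), and 1 lower, SGO2, a protector of centromeric cohesion (-1.16, SE 0.21, adjusted p = 0.00604). Of 20 other kinesin and spindle genes 2 were higher and 2 lower, among them the kinesin KIF22 (0.79), the centrosomal kinase NEK2 (0.56) and the spindle protein DLGAP5 (-0.69). Of 15 condensin, cohesin and separase genes 1 was higher, the condensin subunit SMC2 (0.97, SE 0.19), and 0 lower. Of 13 genes of the anaphase-promoting complex 0 were higher and 1 lower, its inhibitor FBXO5 (-1.23, SE 0.22, adjusted p = 0.00646), at 9.71, 9.64 and 9.92 on the controls and 8.83, 8.10 and 8.66 on the others.

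Of 13 regulators of mitotic entry 2 were higher and 1 lower. PKMYT1, the kinase that inhibits CDK1, read 7.36, 7.26 and 7.33 against 8.02, 8.56 and 8.25 (0.96, SE 0.19, adjusted p = 0.00862), and CDC25B, a phosphatase that opposes it, was higher as well (0.87, SE 0.18, adjusted p = 0.0110). CDC25B and CDC25C thus passed as higher, whereas CDC25A, as described above, was lower by its second probe and fell short of the threshold by its brighter one. PBK, a mitotic kinase, was lower (-0.65). Of 16 genes of the E2F, RB and MuvB families 0 were higher and 3 lower: the repressive E2F4 (-0.78), the MuvB subunit LIN9 (-0.59) and RB1, the retinoblastoma protein that restrains E2F (-1.22, SE 0.35). RB1 gave -0.80 without replicate 2.

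Upstream of replication, 6 of 9 tested G1 cyclins, CDKs and CDK inhibitors were called (66.7%, against 24.6% of all tested genes), 2 higher and 4 lower, led by CCND2 (detected on no array labelled SLAMF1 shRNA and at least 94.5-fold lower), CDKN2D (2.31, SE 0.23) and CCND1 (-1.94, SE 0.16). Of the 23 pathway genes named here, 7 kept their call without any 1 array: TYMS, SGO2, FBXO5, PKMYT1, CCND2, CDKN2D and CCND1. Calls were lost for 10 of the 23 without control replicate 1 (ORC2, TIPIN, CHAF1B, DUT, SPC24, KIF22, DLGAP5, NEK2, RB1 and LIN9; adjusted p from 0.0527 to 0.110). Without control replicate 2 calls were lost for 11 (GINS3, ORC2, DUT, SPC24, KIF22, DLGAP5, NEK2, PBK, RB1, E2F4 and LIN9; 0.0533 to 0.139). Without control replicate 3 the number was 16, all but the 7 above (0.0514 to 0.138). Without replicate 3 labelled SLAMF1 shRNA it was 11 (ORC2, TIPIN, CHAF1B, DUT, SPC24, DLGAP5, NEK2, PBK, RB1, E2F4 and LIN9; 0.0518 to 0.143), without its replicate 1 it was 4 (TIPIN, CHAF1B, DUT and NEK2; 0.0520 to 0.0919), and without replicate 2 it was 0.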

How the data were processed

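Biotinylated cRNA made from total RNA, per the labels' protocols, was hybridised to Illumina beadchips, 6 arrays in 2 groups of 3. The authors deposited probe signal intensity values without background subtraction, from GenomeStudio per the submitters' processing notes, version not given in the sources used here, with a detection p-value per probe and array, per the file headers. A second deposited table of intensity values matched the quantile-normalized signals (100% of values within 1%) and served as an alternative.

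Of 47323 probes 2 had no value. The platform annotation gave 30113 probes 1 symbol, 8 several and left 17200 unnamed here, and 30074 symbols were matched by gene identifier to RefSeq (GRCh38.p14). Signals were corrected for background by nec in limma 3.58.1 (R 4.3.3, offset 16), taken to log2 and normalized between arrays by quantiles. A probe was kept if detected (p under 0.05) on at least 3 of 6 arrays. The brightest of 19073 kept probes was taken per gene, and 10832 genes were fitted with lmFit and eBayes without covariates, with Benjamini-Hochberg adjustment and a threshold of 0.05. Differences understate changes of dim genes because of the offset. For a probe detected on no array of a group the fold is a bound: each dim array took the lowest detected signal on it, or the probe's own where that was higher, and their mean was set against the bright group. The fit was tested on simulated data with independent noise, equal in spread on all 6 arrays. That setting holds no deviant array, so it does not cover one such as replicate 2 labelled SLAMF1 shRNA. Arrays carry no read depth, and 3 per group limit the precision.

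Members and lists were chosen with earlier results of these data known. Named are SLAMF1, the 45 members and, of each further list, up to 3 genes with the largest difference past the threshold. GINS1 and GINS4 were named after their values were seen. Alternatives were the second table, median centring or cyclic loess in place of quantiles, an offset of 50 or uncorrected signals, testing every gene or only those with detection p under 0.01 throughout, averaging probes or testing them singly, trended robust variances, array weights, a replicate block, and leaving out each array.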

Additional observations from a re-analysis of the deposited data

How the results depend on the processing

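Over 18 alternatives per gene, 721 of the single-gene values kept their direction and their side of the threshold, 37 fell short of it, 27 passed it and 25 turned sign. Of the members, GINS2, CDC25C and CENPE were called under every alternative run. Besides the settings named in the report, KIF20A and CDC20 lost their call with no filter on dim probes, and NUSAP1 with median centring, with the stricter detection rule and with its probes averaged or tested singly. Array weights called 2863 genes higher and 2738 lower, with 3 replication genes lower and 5 mitosis genes higher and 10 lower. The calls gained with array weights were MCM2, TOP2A and AURKB as higher and E2F2, CDC25A, CCNB1, AURKA, PLK1, BUB1B, KIF23, BIRC5 and MYBL2 as lower. Median centring called 815 genes higher and 1 replication gene, and put the mitosis median at -0.50 while moving the median of all genes by -0.17. A detection p under 0.01 on all arrays called 830 genes lower, with fewer genes tested. The mean of a gene's probes called 2 replication genes lower, and no background correction, an offset of 50 and the second table called 5 mitosis genes lower each, adding CCNB1 and AURKA. Leaving out 1 array gave 675 to 2103 genes higher and 622 to 1889 lower, 1 to 2 replication genes higher and 0 to 2 lower, and 1 to 4 mitosis genes higher and 1 to 5 lower. The cause was not tested.

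Signs turned with array weights for MCM6 (0.0123), RRM2 (0.25), TTK (0.0471) and MYBL2 (-0.36, adjusted p = 0.0491), with median centring for CDT1 (-0.22), TOP2A (-0.0145), CCNB2 (-0.0319), MYBL2 (-0.19) and TPX2 (-0.24), and with cyclic loess for MYBL2 (-0.0192). With 1 array left out, differences ranged from -0.22 to 0.14 for MCM6, -1.42 to 0.45 for RRM2, -0.32 to 0.0226 for CDC6, -0.17 to 0.22 for CDT1, -0.34 to 0.0773 for TTK, -0.25 to 0.18 for MYBL2, -0.25 to 0.40 for TPX2 and -0.18 to 0.0769 for PTTG1.

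Replicate numbers are shared by the groups, but deviations from the group means correlated at -0.20, -0.14 and 0.21 between arrays of the same number, and 2 of 6 arrays correlated best with their own number, so the numbers were not taken as a pairing. With the replicate block 1107 genes were higher and 961 lower, among them 1 replication gene higher and 0 lower (TK1, CCNE1, CDC20 and NUSAP1 no longer passed, and BUB1B passed). Dim probes near the detection limit have compressed differences, and 3 arrays per group limit what can be told apart.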
